A study of Mus musculus with 24 samples.

Results

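This is an account of the miRNA content of exosome-enriched fractions (EEFs) that were precipitated with a kit from mouse hippocampus 2 weeks after status epilepticus. The samples were taken by their titles, as the kit samples of kainic acid (KA) and control mice at 2 weeks, with 3 libraries in each group, so that 6 of the 24 libraries of the series were compared. Both groups were male C57BL/6 mice (C57BL/6OlaHsd in the methods of the study), 6 to 9 weeks old, that received an injection through a cannula into the right basolateral amygdala. KA mice were given 0.3 µg of KA in 0.2 µl, which propagates seizures to the hippocampus, and control mice were given PBS. Seizures were curtailed with midazolam at 8 mg/kg, which the labels do not give separately for control mice, and the animals were perfused with PBS and killed at 14 days. Each library came from the pooled hippocampi of several mice, so that variation between single animals was not measured. EEFs were treated with RNase A before RNA was extracted, and the fraction may hold vesicles and particles other than exosomes. A level is a share of the miRNA reads of a library, so that more vesicles and more of a miRNA per vesicle cannot be told apart.

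Exosomes are small vesicles that cells release when an endosomal compartment fuses with the plasma membrane, and their cargo includes miRNAs that another cell can take up. A miRNA pairs with its target mRNAs mainly through its seed, bases 2 to 8 from the 5′ end, so that miRNAs with the same seed share many targets. In brain, miR-21 and miR-146a are known for their induction in glia during inflammation, and miR-146a is known to restrain signalling downstream of interleukin-1 and Toll-like receptors.

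The 8 mature sequences below are those with the clearest differences in abundance and some of their relatives, shown since relatives can share reads. Sequences and positions are from RefSeq (GRCm38.p6), where 473 of the 540 miRNAs tested were matched by name, and capitals mark the seed.
miR-21a-5p: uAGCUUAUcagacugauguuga
miR-21c: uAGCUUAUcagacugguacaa
miR-146a-5p: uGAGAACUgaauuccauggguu
miR-146b-5p: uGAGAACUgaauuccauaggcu
miR-10a-5p: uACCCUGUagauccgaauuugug
miR-10b-5p: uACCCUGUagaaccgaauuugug
miR-199b-3p: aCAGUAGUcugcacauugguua
miR-30a-3p: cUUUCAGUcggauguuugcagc
The sequence of miR-21a-5p lies at chr11:86584120-86584141 on the minus strand, within an annotated exon of Vmp1. miR-146a-5p lies at chr11:43374435-43374456 on the minus strand, outside any other gene of the GENCODE M21 annotation. miR-10a-5p lies at chr11:96317186-96317208 on the plus strand, also outside other genes. miR-10b-5p lies at chr2:74726074-74726096 on the plus strand, in introns of Hoxd3 and Hoxd4. miR-199b-3p lies at chr2:32318524-32318545 on the plus strand, opposite an intron of Dnm1. miR-30a-3p lies at chr1:23272315-23272336 on the plus strand. The sequences of miR-10a-5p and miR-10b-5p differ by 1 edit and those of miR-146a-5p and miR-146b-5p by 2. miR-30a-3p differs by 1 edit from miR-30e-3p, which is not shown and had a log2 fold change of -0.18 ± 0.33 (SE). For these pairs the assignment of reads to each is less certain than for miR-21a-5p. The sequence of miR-21c equals that of miR-21a-5p from the 5′ end to beyond the seed and differs towards the 3′ end. Whether its few reads were reads of miR-21a-5p was not tested.

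The control libraries held 219326 to 423895 counts and the KA libraries 247015 to 676726, so that 1 read was worth between 1.48 and 4.56 CPM, the reads of a miRNA scaled to a common library total. At least 1 read was found for 821 miRNA names in the 6 libraries, and the 540 with a read in at least 3 of them were tested. These held 99.98% of the 2099362 reads. KA replicate 2 was the deepest library and stood apart. Over the 221 miRNAs with at least 10 reads in each library, its median absolute log2 difference from the mean of the other libraries was 0.511, against 0.229 to 0.338 for the other 5. Brain miRNAs were abundant, since miR-9-5p, a miRNA of neurons and neural progenitors, lay between 26808 and 35047 CPM. Of the red blood cell miRNAs, miR-451a lay between 4.29 and 104 CPM and miR-486b-5p between 413 and 1572 CPM. Levels of single miRNAs at 2 weeks are in CPM scaled with TMM factors, while the worth of 1 read and the summed levels are scaled by library size alone.

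The clearest differences between KA and control EEFs at 2 weeks were in miR-21a-5p and in its fellow glial miRNA miR-146a-5p, and the most abundant miRNAs differed little. The unadjusted p in edgeR's quasi-likelihood test was under 0.05, the threshold the study used, for 16 of the 540. Of these, 9 were higher in KA (1.67% of those tested) and 7 were lower (1.3%). After Benjamini-Hochberg adjustment, 1 miRNA remained (0.185%), miR-21a-5p. The groups did not overlap for 11 miRNAs that were higher in all 3 KA libraries (2.04%) and for 13 that were lower (2.41%). Of the 12 of these that did not pass the test, 10 were read from at most 17 reads in each library, and the other two, miR-879-5p and miR-138-1-3p, had log2 fold changes of -0.37 and -0.48. Among all the non-overlapping miRNAs, 4 had reads in all 3 KA libraries and none in controls, and 1 had the reverse. They passed the filter only through the group with reads, so that the filter fixed their lack of overlap. Among the 221 miRNAs with at least 10 reads in each library, 218 had a log2 fold change of less than 1 in either direction, and the median over all 540 was 0.00.

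**Figure D1:**
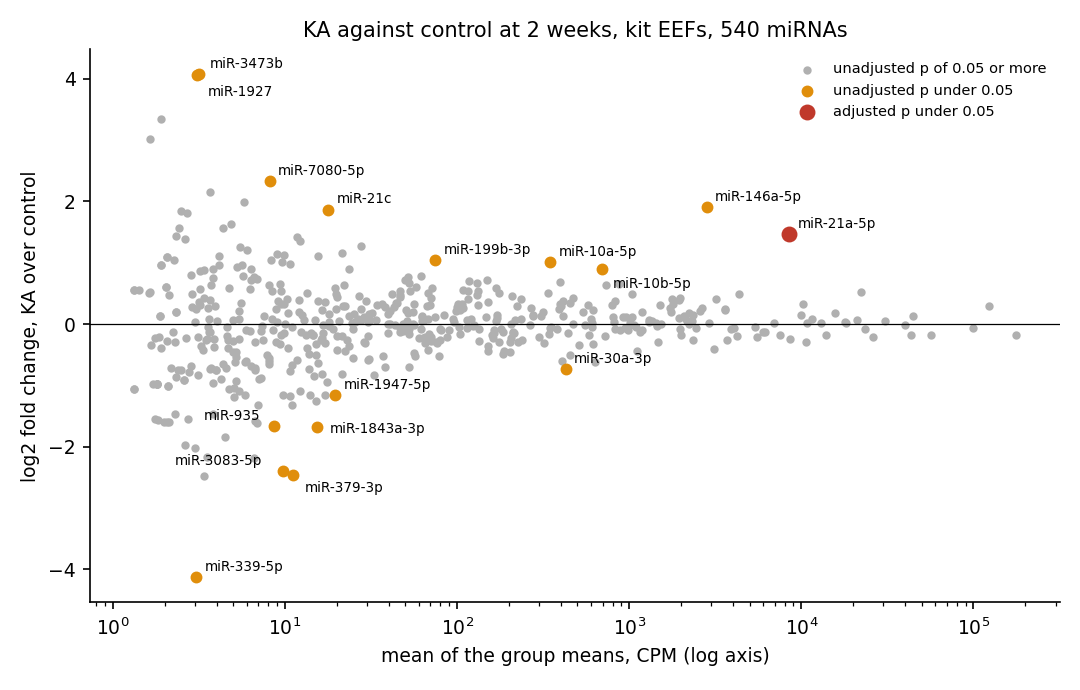
The log2 fold change of KA over control (vertical axis) is plotted against the mean CPM of the group means on a log axis for the 540 miRNAs, each of which is a point. The points spread widely at low levels and narrow to the right, where miR-21a-5p (red) stands above the others together with miR-146a-5p.

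miR-21a-5p, which is known for its induction in reactive glia, was the miRNA that rose after adjustment. It was present at 3773, 5072 and 4766 CPM in control replicates 1 to 3 and at 8670, 16724 and 12124 CPM in KA replicates 1 to 3. All 3 KA libraries lay above all 3 control libraries, and within each replicate number the KA library was the higher. The log2 fold change was 1.46 ± 0.30 (SE), from 4537 ± 679 CPM in controls to 12506 ± 4041 CPM in KA (SD, n = 3), with an adjusted p of 0.0328 in edgeR's quasi-likelihood test. Without KA replicate 2 the log2 fold change was 1.20 and the adjusted p was 0.271. Its adjusted p also exceeded 0.05 without any one of the control libraries, at 0.130 to 0.495.

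miR-146a-5p was higher in KA, with a larger fold change and a wider spread. Its levels were 670.1, 1374 and 1530 CPM in control replicates 1 to 3 and 1577, 8121 and 3659 CPM in KA replicates 1 to 3. The groups did not overlap, but KA replicate 1 was only just above control replicate 3, and KA replicate 2 was far above the rest. The log2 fold change was 1.90 ± 0.46 (SE), with an unadjusted p of 0.000458 and an adjusted p of 0.124 in edgeR's test. Once replicate numbers were blocked, its log2 fold change was 1.74 and the adjusted p was 0.000383, so that the call changed. Whether the numbers pair the samples was not tested. Without KA replicate 2 the log2 fold change was 1.14, with an unadjusted p of 0.013. The levels of its relative miR-146b-5p were 1855, 3591 and 4445 CPM in controls and 3140, 2931 and 5622 CPM in KA, with a log2 fold change of 0.24 ± 0.39 (SE), and the groups overlapped.

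**Figure D2:**
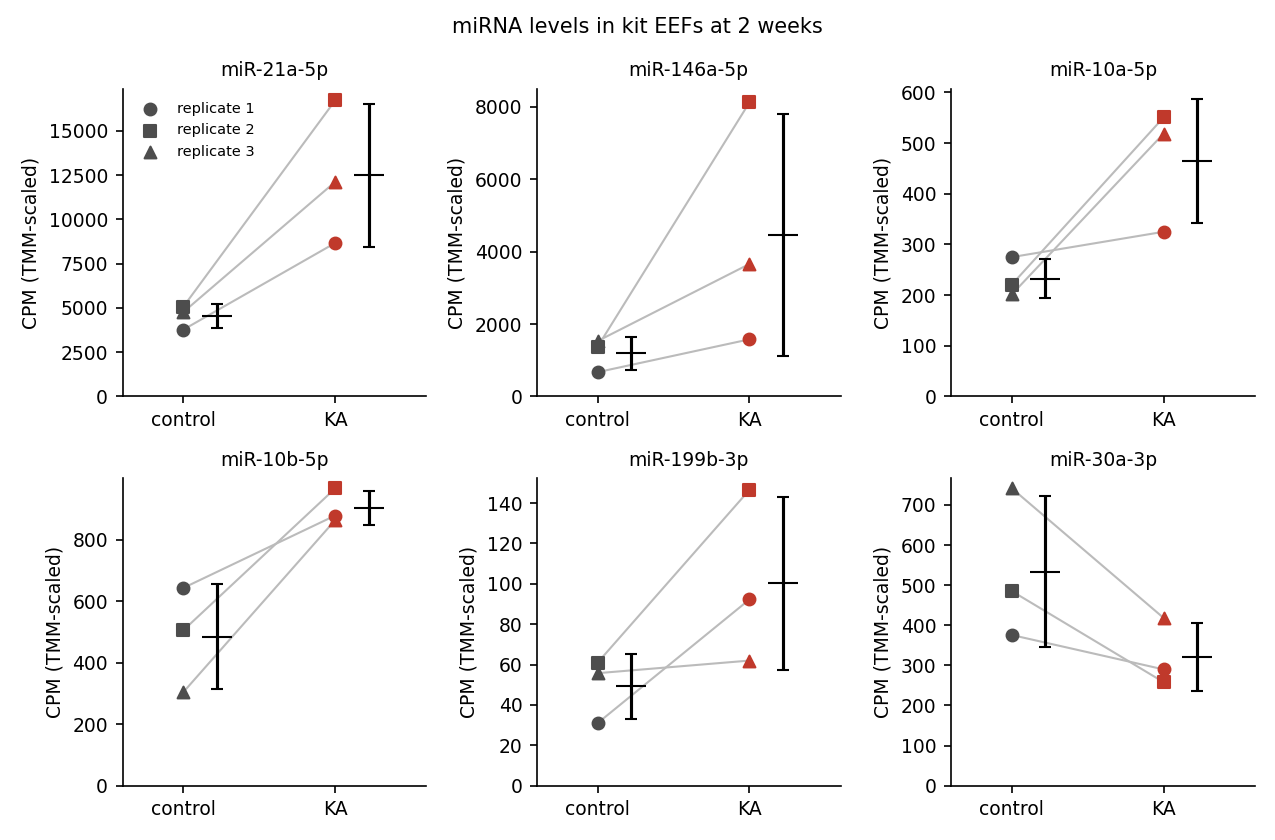
Levels in CPM (vertical axes, from 0) of 6 miRNAs that passed the unadjusted threshold are plotted for control (grey) and KA (red) libraries, with grey lines joining the same replicate number and black bars for the mean and SD (n = 3). The KA libraries lie above all controls for miR-21a-5p, miR-146a-5p, miR-10a-5p, miR-10b-5p and miR-199b-3p, and overlap with them for miR-30a-3p.

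miR-10b-5p, miR-10a-5p and miR-199b-3p, at lower levels, were higher at the unadjusted threshold. miR-10b-5p, which lies in the Hoxd cluster, was present at 643.0, 505 and 304 CPM in controls and at 878, 967 and 864 CPM in KA. Its log2 fold change was 0.90 ± 0.41 (SE), with an unadjusted p of 0.0416. miR-10a-5p, from the Hoxb cluster, was present at 275, 221 and 202 CPM in controls and at 325, 551 and 519 CPM in KA, with a log2 fold change of 1.00 ± 0.45 (SE) and an unadjusted p of 0.0375. miR-199b-3p, which is known from mesenchymal cells and has the same mature sequence as miR-199a-3p, a name without reads here, was present at 31.0, 61.0 and 55.7 CPM in controls and at 92.2, 147 and 62.0 CPM in KA. Its log2 fold change was 1.04 ± 0.42 (SE), with an unadjusted p of 0.0223, and control replicate 2 and KA replicate 3 were almost equal. In all 3 the groups did not overlap, and the adjusted p was 0.999. Without KA replicate 2, none of the 3 passed the unadjusted threshold, and over the 6 fits that leave out 1 library miR-10a-5p and miR-10b-5p passed it in 2 each and miR-199b-3p in 4.

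miR-30a-3p was the most abundant of the 7 miRNAs that were lower at the unadjusted threshold. It was present at 376, 485 and 742 CPM in controls and at 290, 258 and 418 CPM in KA. The groups overlapped, with KA replicate 3 above control replicate 1, and the log2 fold change was -0.73 ± 0.34 (SE), with an unadjusted p of 0.0415. It passed in 2 of the 6 fits that leave out 1 library, with log2 fold changes of -0.96 to -0.43. The other arm of its hairpin, miR-30a-5p, lay at 35738 to 47043 CPM in controls and 35083 to 43396 CPM in KA, with a log2 fold change of -0.02 ± 0.23 (SE).

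The other 10 of the 16 rested on few reads. For 8 of the 16, no library held 10 reads. miR-21c, which shares its seed with miR-21a-5p, had 4, 1 and 1 reads in controls and 9, 9 and 8 in KA. Its levels were 15.5, 2.54 and 4.29 CPM in controls and 39.5, 14.3 and 31.0 CPM in KA. The groups overlapped, with KA replicate 2 below control replicate 1, and miR-21c passed in 2 of the 6 fits that leave out 1 library. miR-3473b had no read in any control library and 2, 4 and 1 reads in KA. With a floor of 3 reads over the empty group and the KA reads as counted, this is 1.83-fold higher. miR-1927 had no control read and 1, 4 and 2 reads in KA, also 1.83-fold higher by this floor. miR-339-5p had 1, 4 and 1 reads in controls and none in KA, 2.54-fold lower by this floor. These 3 were read at the limit of detection. Each passed the filter only through the group that held its reads, so its call is not evidence of a difference. The rest were miR-7080-5p, with a log2 fold change of 2.33, and 5 lower miRNAs, miR-3083-5p (-2.40), miR-379-3p (-2.46), miR-1843a-3p (-1.67), miR-935 (-1.67) and miR-1947-5p (-1.16). miR-379-3p had 0, 2 and 12 reads in controls and 1 in each KA library, and its log2 fold change was -0.08 without control replicate 3. miR-1947-5p passed in none of the 6 fits that leave out 1 library. In all, 7 of the 16 passed again when KA replicate 2 was left out.

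The miRNAs the study names from other samples and its reference miRNAs were examined in the same way. miR-21a-3p, the passenger arm of the miR-21a hairpin, was present at 42.6, 40.6 and 34.3 CPM in controls and 39.5, 94.0 and 62.0 CPM in KA, with a log2 fold change of 0.77 ± 0.49 (SE) and an unadjusted p of 0.129 in edgeR's test. The KA libraries overlapped with the controls, since KA replicate 1 lay among them. miR-107-3p had a log2 fold change of 0.01 ± 0.31 (SE). The 2 reference miRNAs, miR-25-3p and miR-92b-3p, had log2 fold changes of 0.35 ± 0.35 and -0.32 ± 0.32 (SE), in opposite directions, and neither passed the unadjusted threshold.

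None of the 15 most abundant miRNAs passed the test, with log2 fold changes of -0.21 to 0.52. As a group they held a similar part of each library, since the 20 most abundant miRNAs took 79.3 ± 1.4% of the reads in controls and 77.9 ± 0.92% in KA (SD, n = 3, exact permutation p = 0.2, where the smallest p that 3 against 3 allows is 0.1). miR-181a-5p, the highest of all, was present at 207803, 203963 and 149055 CPM in controls and 205139, 134202 and 155802 CPM in KA, with a log2 fold change of -0.18 ± 0.24 (SE). miR-22-3p, miR-127-3p, miR-27b-3p, miR-26a-5p and miR-9-5p had log2 fold changes of 0.30, -0.07, 0.12, -0.18 and 0.05. In KA replicate 2, miR-22-3p stood at 183164 CPM against 81673 to 140904 CPM in the other 5 libraries, and let-7f-5p at 27634 CPM against 40914 to 90501 CPM.

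The 14 lists of miRNAs by cell type and family were described with the median of all tested miRNAs beside them, since they were chosen with earlier results of these data known. Of the 540 tested, 270 had a log2 fold change above 0, and the median was 0.00. In the inflammation and microglia list, 9 of 18 members were tested, 8 were above 0, 3 passed the unadjusted threshold (miR-21a-5p, miR-146a-5p and miR-21c) and none passed in the lower direction, beside 1.67% higher among all tested. The median log2 fold change was 0.77, with 0.71 to 1.37 when 1 library was left out (1.37 without control replicate 1) and 2 or 3 calls. The study named 2 of these 3 from these samples, so the list is not independent evidence of a direction. Its summed level (library size scaling) was 5914, 9422 and 11576 CPM in controls and 12485, 25971 and 22210 CPM in KA, with no overlap, and miR-21a-5p was its most abundant member in the KA libraries. The other 6 tested members gave no call. miR-142a-5p, a miRNA of blood-derived and microglial cells, was at 42.6 to 72.9 CPM in controls and 57.1 to 112 CPM in KA. miR-223-3p, of myeloid cells, had at most 11.6 CPM and no read in control replicates 2 and 3.

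In the endothelial and vessel wall list, 9 of 16 members were tested, all 9 had a log2 fold change above 0, and 3 passed the unadjusted threshold, against 1.67% higher among all tested, with a median of 0.78. miR-10a-5p, miR-10b-5p and miR-199b-3p were the 3. The 2 defining endothelial members, miR-126a-3p and miR-126a-5p, were at 0.02 ± 0.31 and 0.00 ± 0.26 (SE), so that 7 of 9 were above 0 under RLE or library size scaling, DESeq2, limma-voom and the replicate block. The smooth muscle miRNA miR-143-3p was at 0.52 ± 0.29 (SE) with an unadjusted p of 0.0854. The median was 0.59 without KA replicate 2, where 8 of 9 were above 0 and none passed the unadjusted threshold. In the red blood cell list, 5 members were tested without a call, and the median was -0.01. It rested on single libraries, at 1.01 with 2 higher calls without control replicate 2 and -0.59 with 1 lower call without KA replicate 3, and 1 member was called higher without KA replicate 1. The number above 0 was 1, or 3 under library size or reference scaling, DESeq2, limma-voom and the replicate block. The summed level overlapped between groups, at 442 to 1142 CPM in controls and 425 to 1529 CPM in KA. The part of vessel or blood cells in the differences was not tested.

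**Figure D3:**
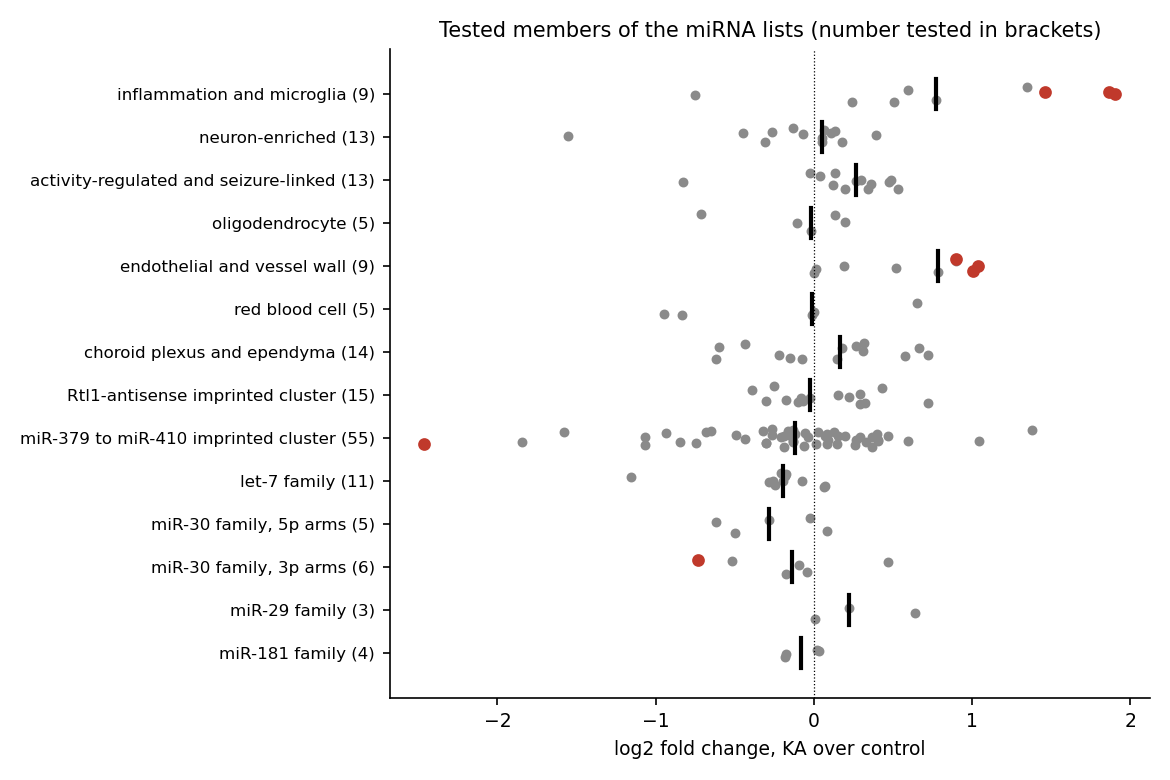
Log2 fold changes of KA over control (horizontal axis) are shown for the tested members of 14 lists, 1 point for each miRNA, red where the unadjusted p is under 0.05, with a black bar for the median of the list. The inflammation and the endothelial lists have medians of 0.77 and 0.78, and the other 12 lie between -0.29 and 0.26.

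The lists of neurons and oligodendrocytes gave no calls. The neuron-enriched list had 13 tested members, no calls and a median log2 fold change of 0.05, and its summed level was 50526 to 73812 CPM in controls and 50920 to 75973 CPM in KA. miR-124-3p, the hallmark miRNA of neurons, was at 3997 to 7474 CPM in controls and 4699 to 6356 CPM in KA. The activity-regulated and seizure-linked list had 13 tested members, 11 above 0, no calls and a median of 0.26. It holds miR-132-3p, a target of CREB, at 767, 737 and 1093 CPM in controls and 918, 1666 and 1038 CPM in KA, with an unadjusted p of 0.114 in edgeR's test. Without KA replicate 2 the median of this list was 0.02, and without KA replicate 1 it was 0.38 with 1 lower call. The oligodendrocyte list had 5 tested members and a median of -0.02. Leaving out 1 library gave medians of -0.18 to 0.03 for the neuron list and -0.07 to 0.07 for the oligodendrocyte list, so neither held a direction. The choroid plexus and ependyma list had 14 tested members, no calls and a median of 0.16. Its median was 0.37 with 2 higher calls without control replicate 1, -0.11 without control replicate 2 and -0.02 without control replicate 3. It had 1 lower call without KA replicate 2, and 1 higher call without KA replicate 3 and with the replicate block.

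Families and clusters gave 2 calls in all, both lower, beside 1.3% lower among all tested. They were 1 of 55 tested members of the miR-379 to miR-410 cluster and 1 of 6 tested 3p arms of miR-30, too few to show a direction. The imprinted cluster from miR-379 to miR-410 on chromosome 12 had 55 tested members, 24 above 0 and 1 call, miR-379-3p, and a median log2 fold change of -0.12. Its median was 0.10 without control replicate 1, and without control replicate 3 it had 1 higher and no lower call. The Rtl1-antisense cluster had 15 tested members, no call and a median of -0.02, with -0.12 to 0.25 when 1 library was left out. The let-7 family had 11 tested members, no call and a median of -0.19. The median was 0.02 without KA replicate 2, with 7 of 11 above 0, and -0.58 without KA replicate 1, with none above 0 and 4 lower calls. The 5p arms of the miR-30 family (5 tested) had a median of -0.29 and the 3p arms (6 tested) -0.14 with 1 call (miR-30a-3p). The medians of the miR-29 family (3 tested) and the miR-181 family (4 tested) were 0.22 and -0.08. When 1 library was left out these 4 medians were, in the same order, -0.39 to -0.12, -0.33 to -0.09, 0.01 to 0.57 and -0.21 to 0.00. The 5p arms of miR-30 then had 2 lower calls without KA replicate 3, and the miR-29 family had 1 higher call without KA replicate 1 or 3.

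The KA effect was set beside that in kit EEFs at 24 h and in ultracentrifuged (UC) EEFs at 2 weeks, each against its own controls. For miR-21a-5p the log2 fold changes were 1.46 ± 0.30 with the kit at 2 weeks, 0.85 ± 0.29 with the kit at 24 h and 1.00 ± 0.29 with UC at 2 weeks (SE). For miR-146a-5p they were 1.90 ± 0.46, -0.35 ± 0.45 and 1.13 ± 0.37 (SE). For miR-10b-5p they were 0.90, 1.21 and -0.22, and for miR-30a-3p -0.73, -0.23 and 0.42. The difference of the KA effects between 2 weeks and 24 h was tested as an interaction over the 12 kit libraries. For miR-146a-5p it was 2.26 ± 0.65 (SE), with an unadjusted p of 0.00204 and an adjusted p of 1.00 in edgeR's test. No miRNA passed after adjustment, and 15 of 540 passed the unadjusted threshold (2.78%). With the replicate block, the adjusted p of miR-146a-5p was 0.0163. For miR-21a-5p the difference was 0.61 ± 0.41 (SE), with an unadjusted p of 0.152. The difference between kit and UC at 2 weeks was tested over all 24 libraries, where none passed after adjustment and 17 of 540 passed unadjusted (3.15%). It was 0.53 ± 0.40 for miR-21a-5p (unadjusted p 0.193) and 0.85 ± 0.52 for miR-146a-5p (SE, unadjusted p 0.109), which was -0.04 without KA replicate 2 and 1.26 without KA replicate 1 (unadjusted p 0.012). The lowest p values with method were those of miR-671-3p, miR-3473b and miR-376a-3p, the last with a difference of 1.80 ± 0.75 (SE, unadjusted p 0.0203). With time, miR-3473b and miR-7689-3p followed miR-146a-5p, the latter with -4.02 ± 1.40 (SE, unadjusted p 0.00873) on few reads, since 2 of its 3 control libraries at 24 h held none. No size is given for miR-3473b and miR-671-3p, since a group of control libraries held no read of each.

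**Figure D4:**
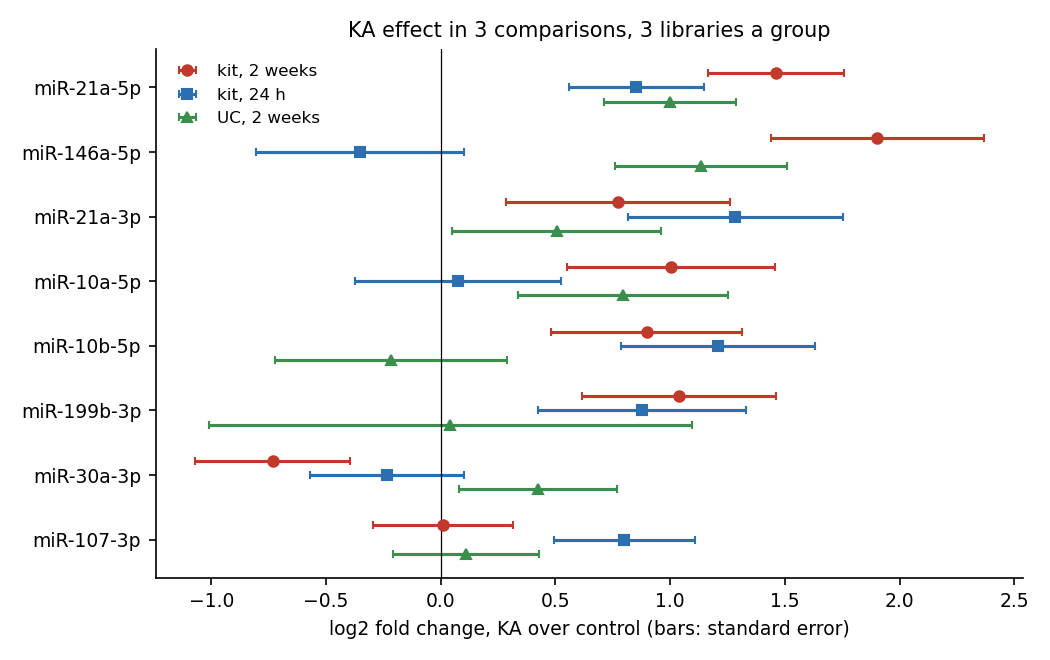
The log2 fold change of KA over control (horizontal axis, bars for the standard error, 3 libraries a group) is shown for 8 miRNAs in the kit EEFs at 2 weeks (red), the kit EEFs at 24 h (blue) and the UC EEFs at 2 weeks (green). miR-21a-5p lies above 0 in all 3 comparisons, while miR-146a-5p is above 0 at 2 weeks with either method and at -0.35 at 24 h.

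None of 7 measures of read ends passed a test between the groups, in a design where 3 pairs cannot give an exact p under 0.25. An added or changed 3′ end was present in 9.84 ± 0.83% of the reads in controls and 10.0 ± 1.1% in KA (SD, n = 3, exact permutation p = 0.7). A single U listed at the 3′ end, which terminal uridylyltransferases can add, was present in 3.01 ± 0.11% and 3.23 ± 0.19% (exact permutation p = 0.2). A single A was listed there in 2.59 ± 0.12% and 2.54 ± 0.48% (exact permutation p = 0.9). The share with a single U was higher in KA within all 3 replicate numbers, at 3.13 and 3.14%, 2.92 and 3.45%, and 2.99 and 3.10% in control and KA (paired exact p = 0.25). The shares with a single C or G (0.328% in controls and 0.318% in KA) and with an altered 5′ end (0.547% and 0.486%) were lower in KA within all 3 numbers, each with a paired exact p of 0.25. Over 336 miRNAs with 1 hairpin in RefSeq, 57762 reads had a single base listed at the 3′ end. Of these, 36 (0.0623%) had a base equal to the hairpin base at the listed position. Whether this share follows from how changes are listed was not tested. Reads with no listed change made up 88.9 ± 0.78% in controls and 88.8 ± 1.1% in KA (exact permutation p = 0.8).

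By miRNA, over the 98 with at least 100 reads in each library, the altered 3′ share was higher in all 3 KA libraries than in all controls for 4 miRNAs (4.08%) and lower for none. These were miR-378a-3p, miR-98-5p, miR-146b-5p and miR-411-5p, which were named after their values were seen. miR-378a-3p was at 26.1, 26.0 and 25.8% in controls and 27.5, 27.5 and 29.7% in KA. For a single U, 3 miRNAs were higher (3.06%) and 5 lower (5.1%), and for a single A 2 were higher (2.04%) and 5 lower (5.1%). The 5 miRNAs with the largest differences in altered 3′ ends were miR-29c-3p (10.6 percentage points), miR-146a-5p (-6.30), miR-138-5p (5.44), miR-101a-3p (-5.00) and let-7d-5p (4.89), and their groups overlapped. For miR-146a-5p the share was 39.9, 25.5 and 28.3% in controls and 29.0, 20.4 and 25.4% in KA, lower within each replicate number.

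A-to-G changes can be read where adenosine is edited to inosine by ADAR enzymes, and other sources of such a change were not tested. They were found at 10 sites by the read minimum and binomial test of the study. Its limits to positions within the mature sequence and to well-supported miRNA genes were not applied. Positions are counted from 1 at the 5′ end of the mature miRNA, and 1 of the 10, in miR-6236, is listed at position 0, outside the mature sequence. Of the 6 sites that the study names, 5 passed this rule here. miR-3099-3p at position 7 was edited in 81.4, 86.6 and 87.4% of its reads in controls and 82.9, 86.8 and 88.6% in KA. miR-376b-3p at position 6, in the seed, was at 79.2, 74.4 and 78.0% in controls and 90.3, 77.0 and 71.7% in KA, on 31 to 87 reads in each library. Both had differences within the spread, at an exact permutation p of 0.6 and 0.9. miR-378a-3p at position 16 was at 48.1, 47.0 and 47.3% in controls and 47.0, 32.6 and 43.5% in KA, the lowest level being in KA replicate 2 (95% Wilson interval 31.2 to 33.9%, on 4798 reads). KA replicate 3 was also below all controls, while KA replicate 1 was level with control replicate 2. Its exact permutation p was 0.2, and the paired exact p was 0.25.

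miR-411-5p at position 5 was at 13.2 to 19.3% in controls and 14.3 to 21.3% in KA, and miR-421-3p at position 14 at 6.42 to 9.72% and 5.56 to 11.3%. miR-381-3p at position 7 was at 1.52 to 4.17% in controls and 1.34 to 2.04% in KA and was not called in 2 libraries of either group. The 3 other sites with the highest mean level were miR-2137 at position 16, on 5 to 29 reads, miR-378c at position 16, on 44 to 285 reads, and miR-376c-3p at position 6, on 4 to 16 reads. miR-2137 was at 84.6 to 100% in controls and 87.5 to 96.6% in KA. The means of miR-378c were 45.8% in controls and 43.4% in KA, with the lowest level, 33.3%, in KA replicate 2, as for miR-378a-3p. Whether miR-378c and miR-378a-3p share reads was not tested. None of the 11 levels compared had an exact permutation p under 0.2, where the smallest that 3 against 3 allows is 0.1.

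**Figure D5:**
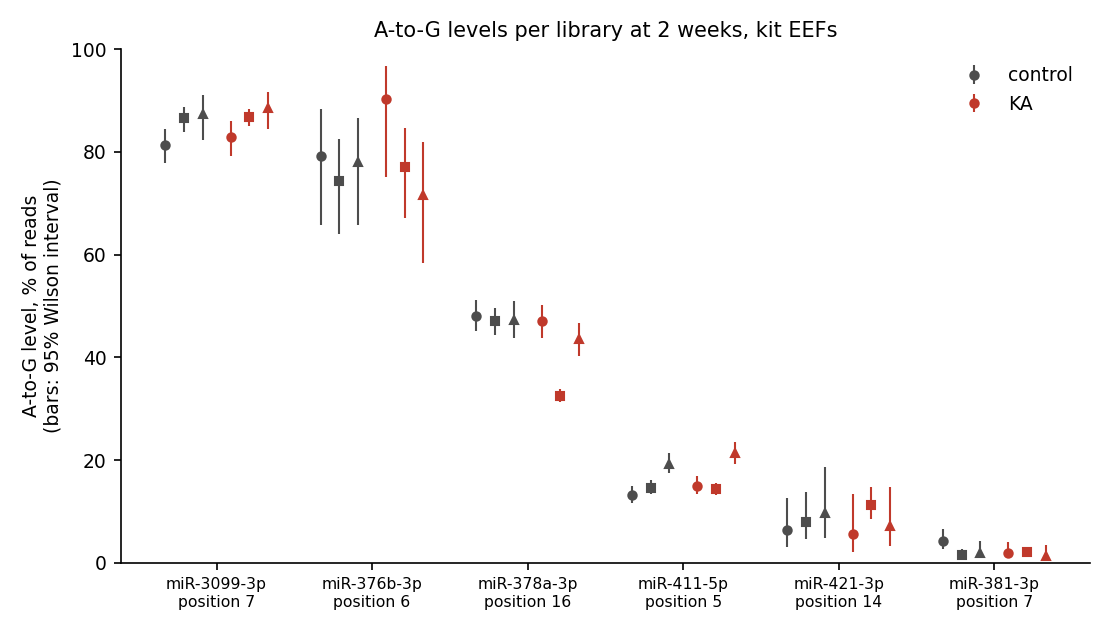
A-to-G levels (vertical axis, percent of reads, from 0 to 100) at the 6 sites named by the study are shown for each control (grey) and KA (red) library, with circles, squares and triangles for replicates 1 to 3 and bars for the 95% Wilson interval. The groups overlap at each site, with KA replicate 1 and control replicate 2 almost equal at miR-378a-3p, where KA replicate 2 is the lowest.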

How the data were processed

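Small RNA of kit EEFs was sequenced from 6 libraries, compared within a fit of 12 kit libraries in 4 groups. Per the labels and methods, the authors trimmed adapters and mapped reads to miRBase hairpins with the Chimira web server. The deposited values are raw counts of reads per mature miRNA, and counts of reads per modification. The assignment of reads with more than 1 matching hairpin is not given in the sources used here. Reads listed a 2nd time in the modification table (3381) were left out, after which totals equalled the count table in 3244 of 3244 pairs. Total counts per library ranged from 219326 to 676726. Intervals cover counting error only, and floors that of the empty group only, since the reads carry no molecular identifiers.

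miRNAs with at least 1 read in 3 of the 6 libraries were tested with edgeR 4.0.16 in R 4.3.3 (TMM, glmQLFit, glmQLFTest, 1 coefficient per group, two-sided, Benjamini-Hochberg). The kit was compared with UC in a fit of all 24 libraries. The standard error was the log2 fold change divided by the square root of F. Alternatives were other scalings (RLE, library size alone, the 2 reference miRNAs), other filters (none, that of the study, at least 10 reads), DESeq2 1.42.0, limma-voom (limma 3.58.1), the replicate block, only the 6 libraries and each library left out. Shares and levels were compared with two-sided exact permutation tests (Python 3.11.15, scipy 1.17.1). The list sums were not tested. The fits and the calls of edited sites were tested on simulated data.

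Replicates were taken from the titles, and nothing says that they came from separate cohorts, so p-values measure the spread between pooled samples. Counting error did not account for the spread within a group, with a chi-square per degree of freedom of 26.3 to 155.7. Deviations from the group means of same-numbered libraries correlated at 0.317, 0.174 and 0.209, against -0.223 to 0.0155 for other pairs. Deviations within a group sum to 0, so that positive values for the same numbers lower those of the other pairs. Whether the numbers pair the samples was not tested, and the labels do not say what a number marks. The block was fitted over all 12 kit libraries, while these correlations were taken only at 2 weeks.

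The members and lists were chosen with earlier results of these data known. The named miRNAs were those the study names as changed (miR-21a-5p, miR-146a-5p, miR-21a-3p, miR-107-3p), its reference miRNAs, all past the unadjusted threshold to at most 25, the 15 most abundant, the 3 most abundant of each list, the 6 editing sites of the study and the 3 other A-to-G sites with the highest level, the 5 largest differences in altered 3′ ends and the 3 lowest p of each interaction. Sites, wherever listed in a read, needed at least 10 reads and an adjusted binomial p under 0.05 against an error rate of 0.01, in at least 2 libraries of a group. Gene ontology and target analyses were not used here.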

Additional observations from a re-analysis of the deposited data

Results flagged for a closer look

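The KA effect on miR-146a-5p differed between 2 weeks and 24 h with the kit, at the unadjusted threshold. The difference of the log2 fold changes was 2.26 ± 0.65 (SE), with an unadjusted p of 0.00204 and an adjusted p of 1.00 in edgeR's test of the interaction. At 24 h the levels (library size scaling) were 582, 1640 and 1243 CPM in controls and 633, 889 and 995 CPM in KA, whereas at 2 weeks each KA library was higher than its same-numbered control. The difference was 1.49 without KA replicate 2 and 2.66 without KA replicate 1, with an adjusted p of 0.900 and 0.0490.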

How the results depend on the processing

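miR-21a-5p and miR-146a-5p kept their direction and passed the unadjusted threshold under all 16 alternatives, with log2 fold changes of 1.20 to 1.67 and 1.14 to 2.31 without single libraries. Of the 16 miRNAs called, 7 were called again without KA replicate 2 and 6 without control replicate 2. The number past the unadjusted threshold was 4 of the 266 miRNAs with at least 10 reads in 3 of the 6 libraries. That filter takes out the 8 of the 16 for which no library held 10 reads. Of all 540, 9 passed with DESeq2 and 11 to 28 without single libraries, with 28 without KA replicate 1. The number past adjustment was 0 on scaling by both reference miRNAs, with the filter of the study, with at least 10 reads and with only the 6 libraries, and 2 with no filter and with the replicate block, which added miR-146a-5p. Without single libraries it was 0 to 2. Scaling to the 2 reference miRNAs gave 8 higher of 11 called (72.7%), against 9 of 16 (56.2%). The interaction with time gave 6 of the 266 with at least 10 reads past the unadjusted threshold, and 11 to 22 without single libraries. Past adjustment it gave 1, miR-146a-5p, with the replicate block and 0 to 1 without single libraries. The interaction with method gave 5 of the 266 with at least 10 reads and 12 to 21 without single libraries, and the replicate block gave 22. The share with a single U at the 3′ end differed by 0.216 percentage points over all reads and by -0.0463 as a mean over abundant miRNAs, and that with a single C or G by -0.0097 and -0.0391. Among the 16 miRNAs, the replicate block ended the call of miR-1947-5p (unadjusted p 0.0561) and of no other. The cause of these changes was not tested. Depth limits miRNAs under about 10 reads, where 1 read moves a level by 1.48 to 4.56 CPM (library size scaling).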
